A study of Mus musculus with 12 samples.

Results

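The mitochondrial genome encodes 7 subunits of respiratory complex I, and the mRNAs of all 7 (*ND1*, *ND2*, *ND3*, *ND4*, *ND4L*, *ND5* and *ND6*) were followed here in mouse muscles transfected with *FRAIL1*. The members were chosen by name, by looking up the NCBI Gene ID of each mitochondrial complex I gene in the count table, a rule that uses no measured value. They are 7 of 27179 genes in the table and 7 of 13 mRNAs of the mitochondrial genome, and all 7 passed the filter on low counts.

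The samples were 12 tibialis anterior (TA) muscles from 6 wild-type male C57BL/6N mice, which arrived at 6 to 8 weeks of age and were used within 2 weeks. One TA of each mouse received 10 μg of the empty plasmid pcDNA3 by electroporation (Control muscles, n = 6), and the opposite TA received 10 μg of the plasmid carrying full-length *FRAIL1*, a human long noncoding RNA, under the cytomegalovirus promoter (*FRAIL1* muscles, n = 6). Both TAs were taken at day 7, so each Control muscle had also been injected and electroporated. *FRAIL1* is not among the mouse genes of the table, and its own level was therefore not measured in these counts. RNA came from whole muscle with poly(A)+ selection, and a value is a sum over all cell types, in which fewer muscle fibers and less mitochondrial RNA per fiber cannot be told apart. Total counts ranged from 45018389 to 59309210 in Control and from 44848322 to 60527385 in *FRAIL1* muscles. Levels are given as CPM (counts of a gene per 1e+06 counts of its library, scaled with edgeR's TMM factors), and muscles of 1 replicate number were taken as the muscles of 1 mouse, which the labels do not spell out.

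Complex I (NADH:ubiquinone oxidoreductase) is the entry point of electrons from NADH into the respiratory chain and pumps protons across the inner mitochondrial membrane. Its ND subunits form the core of the membrane arm, where protons are moved, while the core subunits that bind NADH and carry electrons to ubiquinone are encoded in the nucleus, as are the accessory subunits and the assembly factors. Mitochondrial RNA is transcribed from each strand as a long precursor that is cut at the tRNAs, and *ND6* is the only mRNA of the strand opposite to that which encodes the others. Oxidative muscle fibers are rich in these transcripts, and a fast muscle such as the TA still devotes a large share of its RNA to them.

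Where the 7 genes lie decides which reads can be counted for them. On the mitochondrial chromosome of GRCm38 (GENCODE annotation), *ND1* runs from 2751 to 3707, *ND2* from 3914 to 4951, *ND3* from 9459 to 9806, *ND4L* from 9877 to 10173, *ND4* from 10167 to 11544 and *ND5* from 11742 to 13565, all on the plus strand. *ND6* runs from 13552 to 14070 on the minus strand. *ND5* and *ND6* meet tail to tail and share 14 bases, and *ND4L* and *ND4*, which are read from 1 bicistronic mRNA, share 7 bases. The ends of these 4 genes are shown because a read over the capitals belongs to both genes of a pair. All sequences are transcript sequences of the GENCODE annotation, written 5′ to 3′ in the sense of the gene, and capitals in the first 4 mark the bases in the overlap.
*ND5*, last 40 bases (chrM:13526-13565, plus strand): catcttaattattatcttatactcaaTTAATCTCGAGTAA
*ND6*, last 40 bases (chrM:13552-13591, minus strand): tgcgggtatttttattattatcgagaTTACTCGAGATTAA
*ND4L*, last 40 bases (chrM:10134-10173, plus strand): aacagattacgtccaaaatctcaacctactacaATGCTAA
*ND4*, first 40 bases (chrM:10167-10206, plus strand): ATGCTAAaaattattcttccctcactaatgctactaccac

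The next pair of sequences shows the start of *ND3* beside *Gm28438*, an annotated nuclear copy of it, because a read of *ND3* can also fit that copy. The capital marks the base that differs (T3C, counted from 1 at the first base of *ND3*, with the base of *ND3* first).
*ND3*, first 40 bases (chrM:9459-9498, plus strand): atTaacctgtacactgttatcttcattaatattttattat
*Gm28438*, first 40 bases (chr1:24613080-24613119, minus strand): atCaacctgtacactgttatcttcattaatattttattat

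*ND3* and *Gm28438* differed in 1 of the 345 bases that *Gm28438* spans. *ND4L* was identical to its copy *Gm10222* over all 294 bases compared, and the first 876 bases of *ND4* were identical to *Gm28439*. These copies belong to a block of 7 annotated nuclear copies of mitochondrial genes on chromosome 1, between 24611535 and 24616197 of GRCm38 on the minus strand. A stretch of 150 bases, the read length, was found unchanged in another annotated transcript for 97.0% of the windows of *ND3* (193 of 199), 98.0% of those of *ND4L* (145 of 148) and 59.2% of those of *ND4* (727 of 1229). No window of *ND1*, *ND2*, *ND5* or *ND6* had such a copy. Only reads that mapped to 1 place in the genome were counted, and a read inside a copied window has more than 1 place, which covers nearly all of *ND3* and *ND4L* and the first part of *ND4*. None of the names of the nuclear copies was found among the gene symbols matched to the table. Gene IDs without a symbol could not be searched in this way. The strand setting of the count is not given in the sources used here, so reads over the 14 bases that *ND5* and *ND6* share cannot be assigned to one of them. If strand was ignored, plus-strand RNA over the rest of *ND6* was also counted for *ND6*. How much of the *ND6* count comes from each strand is therefore not known.

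Per kilobase of gene, *ND1* had the highest counted level of the 7 in Control muscles, at 14706 ± 1310 CPM per kb (SD, n = 6), followed by *ND2* at 9927 ± 992 CPM per kb (SD, n = 6). *ND5* and *ND4* stood next, at 5546 ± 563 and 5152 ± 468 CPM per kb (SD, n = 6), and their difference was smaller than the spread between muscles of either. *ND6* measured 4315 ± 582 CPM per kb (SD, n = 6), within 2 SD of *ND4*. The count of *ND4* is divided by its whole length, although 59.2% of its windows are copied. Its value is thus too low for its mRNA, and its place beside *ND5* and *ND6* is not read as a likeness in level. *ND4L* was counted at 13.2 ± 2.29 and *ND3* at 8.40 ± 2.93 CPM per kb (SD, n = 6), and these last 2 overlapped. The step from *ND6* to *ND4L* separates the genes with no or a partial copy from the genes that are almost wholly copied. *ND4L* and *ND4* are read from 1 mRNA, and their counted levels per kb were 13.2 and 5152, so the values of *ND4L* and *ND3* are not read as levels of their mRNAs. Equally low were *COX2*, *ATP6* and *COX3*, which encode subunits of cytochrome c oxidase and of the ATP synthase, at 16.1 to 19.1 CPM per kb with 99.4 to 99.8% of their windows copied. *ATP8*, which has no annotated copy of a whole window and is only 204 bases long, was counted at 4.64 ± 1.19 CPM per kb (SD, n = 6). Copies outside annotated transcripts were not sought, so an unannotated copy of *ATP8* may have been missed, and the cause of its low count was not tested. *COX1* (27320 CPM per kb, 23.6% of windows copied) and *CYTB* (17730 CPM per kb, none) were the only mitochondrial mRNAs counted above *ND1*.

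**Figure D1:**
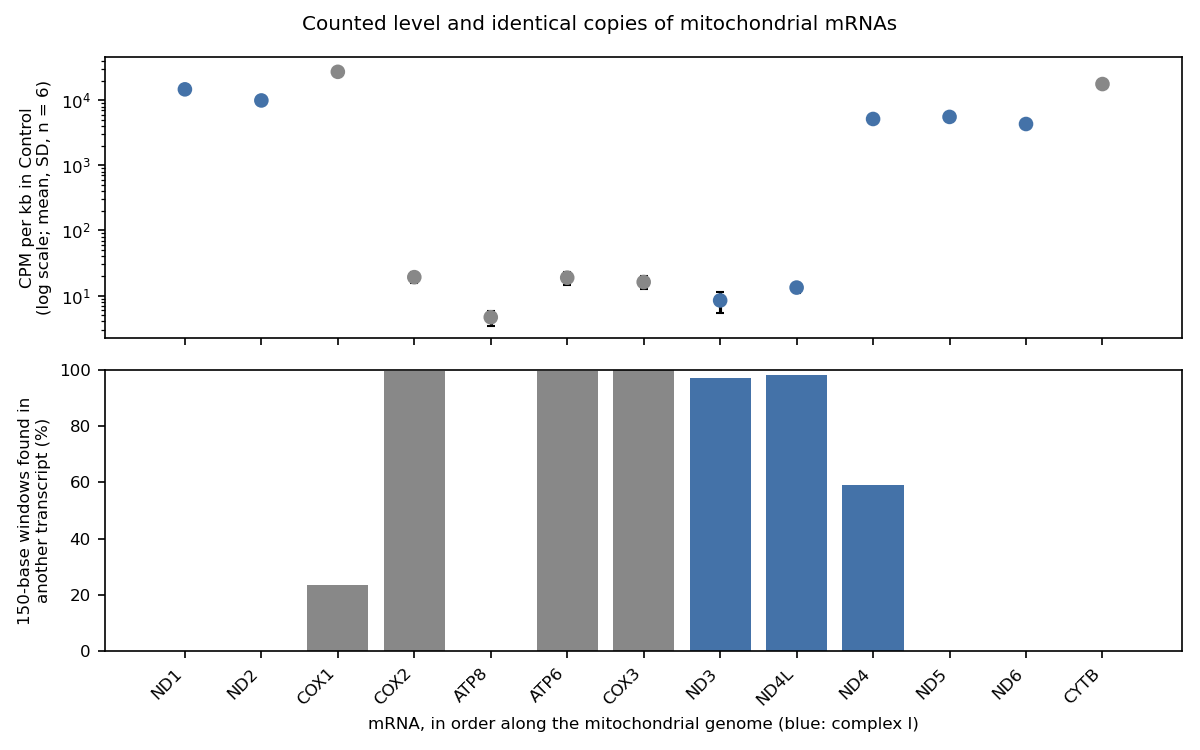
Upper panel, counted level of the 13 mRNAs of the mitochondrial genome in the 6 Control muscles, in CPM per kb on a log scale (points are means, bars SD), and lower panel, percent of their 150-base windows found unchanged in another annotated transcript. Complex I mRNAs are blue, and *ND3* and *ND4L*, with 97.0% and 98.0% of windows copied, sit at 8.40 and 13.2 CPM per kb, while *ND1*, *ND2*, *ND4*, *ND5* and *ND6* lie at 4315 to 14706 CPM per kb.

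The comparison of *FRAIL1* with Control muscles asks whether forced expression of the human RNA changed the level of these mRNAs. All 7 had a lower mean in *FRAIL1* muscles, at 67.9 to 78.5% of the Control mean, and their log2 fold changes lay between -0.55 and -0.35 with a median of -0.45, against a median of 0.0096 over all 15502 genes tested. In edgeR's quasi-likelihood test, adjusted by Benjamini-Hochberg over all genes, 0 of the 7 passed an adjusted p of 0.05, a threshold that 6.28% of all genes passed (1.85% lower, 4.43% higher). With the mouse as a block in the same test, 5 of the 7 passed and all 5 were lower, against 14.1% of all genes (6.62% lower), and *ND3* and *ND4L* did not pass. All 7 had an unadjusted p under 0.05 without the block, as did 27.7% of all genes. DESeq2's Wald test called 4 of the 7 (14.3% of all genes), and 6 with the block (18.5% of all genes). The 5 members other than *ND3* and *ND4L* were lower in the *FRAIL1* muscle of all 6 mice, as were 11.7% of all genes. The members share precursors, muscles and scaling, so their agreement in direction is not that of 7 separate measurements. The calls of edgeR without the block also moved with single muscles. They were 0 of 7 when any 1 Control muscle was left out and 5 of 7 without *FRAIL1* muscle 3. With *FRAIL1* muscle 2 or 5 left out, 4 and 3 of 7 passed. Fits that left out 1 muscle were not run with the block. Over all genes, the fits without 1 Control muscle called 400 to 537. Those without *FRAIL1* muscles 3, 2 and 5 called 2110, 1579 and 969 of all genes.

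*ND2*, a proton-pumping subunit of the membrane arm, had the largest difference among the 5 well counted members. Well counted means here at least 61088 counts in every muscle, although *ND4* is copied in part. Its level in Control muscles ranged from 8479 to 11394 CPM with a median of 10569.5, and in *FRAIL1* muscles from 4149 to 8798 CPM with a median of 7649. Means were 10304 ± 1029 CPM for Control and 7161 ± 1799 CPM for *FRAIL1* muscles (SD, n = 6 each). Of the *FRAIL1* muscles, 4 lay below every Control muscle, and the *FRAIL1* muscle was the lower one in 6 of 6 mice, by between -0.25 in mouse 3 and -1.03 in mouse 5 on the log2 scale. Its log2 fold change was -0.53 (SE 0.153, adjusted p = 0.0536, edgeR), and -0.56 with the mouse as a block (adjusted p = 0.0100, edgeR).

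*ND4* and *ND5*, the other antiporter-like subunits that line the distal membrane arm, differed by nearly as much as *ND2*. *ND4* ranged from 5905 to 7585 CPM in Control (median 7355) and from 3284 to 6415 CPM in *FRAIL1* muscles (median 5418), with means of 7099.5 ± 645 and 5197 ± 1169 CPM (SD, n = 6 each). Its log2 fold change was -0.45 (SE 0.135, adjusted p = 0.0576, edgeR), and with the mouse as a block -0.48 (adjusted p = 0.0120, edgeR). *ND5*, the longest of the 7, ranged from 8392 to 11371 CPM in Control (median 10238) and from 4550.1 to 9381 CPM in *FRAIL1* muscles (median 7583), with means of 10115.5 ± 1027 and 7388 ± 1811 CPM (SD, n = 6 each). Its log2 fold change was -0.45 (SE 0.146, adjusted p = 0.0705, edgeR), and with the mouse as a block -0.49 (adjusted p = 0.0121, edgeR). For both genes 4 *FRAIL1* muscles lay below the lowest Control muscle, and the *FRAIL1* muscle was lower in 6 of 6 mice.

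*ND1*, the subunit at the junction of the membrane and the matrix arm next to the ubiquinone site, had the highest level and a slightly smaller difference. It ranged from 11985 to 15651 CPM in Control (median 14079) and from 6849 to 12565 CPM in *FRAIL1* muscles (median 11479), with means of 14074 ± 1253 and 10647 ± 2219 CPM (SD, n = 6 each). Again 4 *FRAIL1* muscles lay below all Control muscles, and all 6 mice had the lower value in the *FRAIL1* muscle. The log2 fold change was -0.40 (SE 0.129, adjusted p = 0.0687, edgeR), and with the mouse as a block -0.43 (adjusted p = 0.0164, edgeR).

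*ND6*, the member of the opposite strand and a subunit of the proximal membrane arm, had the smallest difference of the 7. Its level ranged from 1694 to 2546 CPM in Control (median 2312) and from 1142 to 2128 CPM in *FRAIL1* muscles (median 1896), with means of 2239 ± 302 and 1757 ± 406 CPM (SD, n = 6 each). Only *FRAIL1* muscles 1 and 5 lay below the lowest Control muscle, although the *FRAIL1* muscle was the lower one in 6 of 6 mice, by -0.10 (mouse 3) to -0.62 (mouse 1) on the log2 scale. The log2 fold change was -0.35 (SE 0.147, adjusted p = 0.142, edgeR), and with the mouse as a block -0.37 (adjusted p = 0.0175, edgeR). Without the block, *ND6* was not past the threshold in any of the 12 fits that left out 1 muscle. Its adjusted p in these fits was 0.0887 to 0.251 (edgeR).

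*ND3* and *ND4L*, the small subunits that lie between *ND1* and the antiporter-like subunits, were measured on 74 to 215 and 78 to 266 counts per muscle, and counting error and unresolved copies weigh on both. *ND3* ranged from 1.91 to 4.72 CPM in Control (median 2.83) and from 1.45 to 2.76 CPM in *FRAIL1* muscles (median 1.997), and the groups overlapped widely. Its log2 fold change was -0.52 (SE 0.226, adjusted p = 0.149, edgeR), and with the mouse as a block -0.50 (adjusted p = 0.0957, edgeR). *ND4L* ranged from 2.89 to 4.94 CPM in Control (median 3.90) and from 1.46 to 4.56 CPM in *FRAIL1* muscles (median 2.24), with 4 *FRAIL1* muscles below the lowest Control muscle. Its log2 fold change was -0.55 (SE 0.233, adjusted p = 0.140, edgeR), and with the mouse as a block -0.63 (adjusted p = 0.0514, edgeR). Both were lower in 5 of 6 mice and higher in the *FRAIL1* muscle of mouse 3, by 0.46 for *ND3* and 0.30 for *ND4L* on the log2 scale. Both fold changes are nominally as large as that of *ND2*, but their standard errors are wider.

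**Figure D2:**
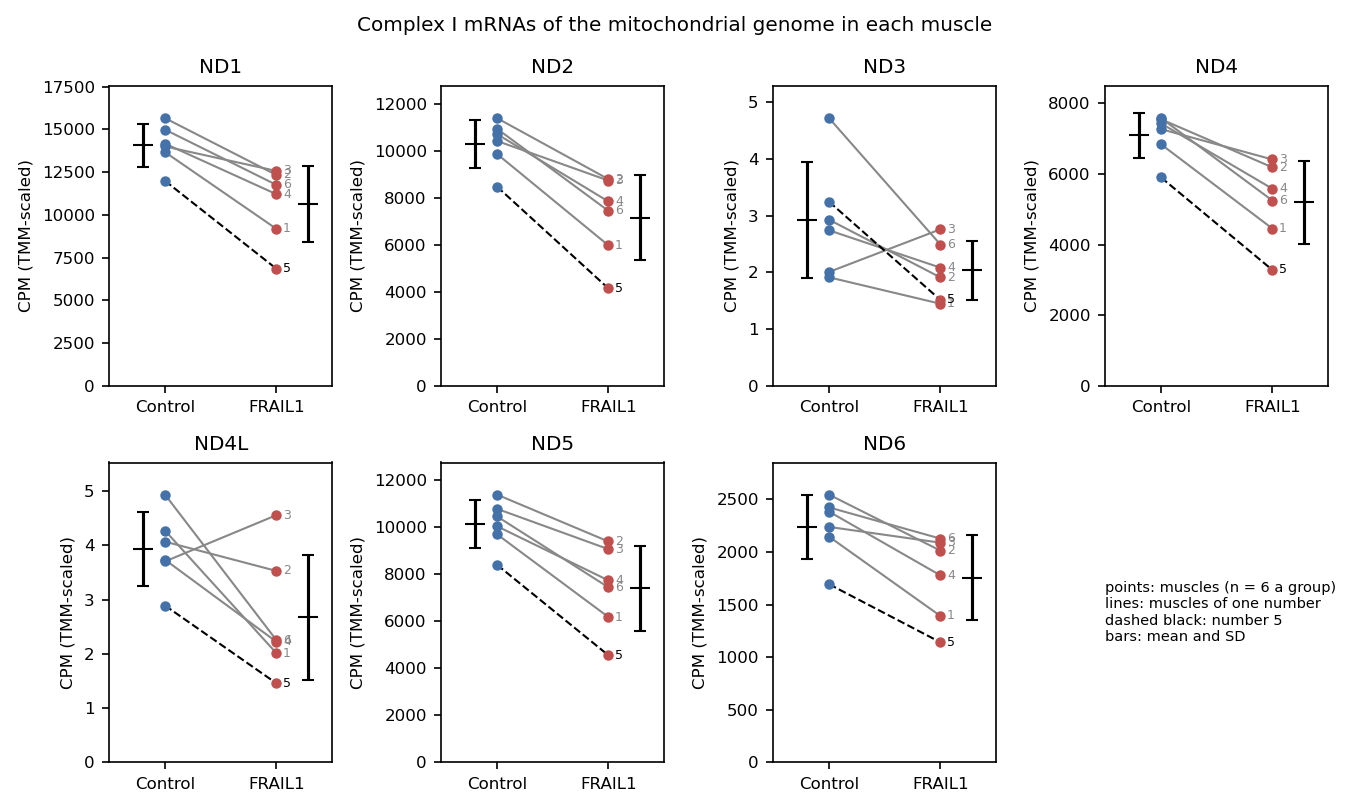
Level of each complex I mRNA in each muscle, in TMM-scaled CPM (axes start at 0). Points are muscles, lines join muscles of 1 number, the dashed line is number 5, and bars at the side give the mean and SD of 6 muscles. *ND1*, *ND2*, *ND4*, *ND5* and *ND6* are lower in the *FRAIL1* muscle along every line, while *ND3* and *ND4L* are higher in number 3.

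Muscles numbered 5 were the extremes for the 5 well counted members. Control muscle 5 was the lowest Control muscle and *FRAIL1* muscle 5 the lowest *FRAIL1* muscle for *ND1*, *ND2*, *ND4*, *ND5* and *ND6*. Because of Control muscle 5 alone, the groups overlapped: the other 5 Control muscles lay above all 6 *FRAIL1* muscles for each of these 5 genes, as was so for 3.02% of all genes tested, against 1.77% with Control muscle 5 included. For *ND2*, the lowest of the other Control muscles had 9869.8 CPM and the highest *FRAIL1* muscle 8798 CPM, and for *ND6* the corresponding values were 2147 and 2128 CPM. Leaving Control muscle 5 out was examined after these values were seen. Mouse 5 also had the largest difference for *ND1*, *ND2*, *ND4* and *ND5* (-0.81 to -1.03 on the log2 scale), and mouse 3 the smallest (-0.16 to -0.25). Without both muscles numbered 5, a comparison chosen after seeing the data, the log2 fold changes were nearer to 0 for all 7. By edgeR's test without a block, *ND1* (-0.35, adjusted p = 0.0255), *ND2* (-0.46, adjusted p = 0.0127), *ND4* (-0.40, adjusted p = 0.0189) and *ND5* (-0.40, adjusted p = 0.0332) then passed, while *ND3*, *ND4L* and *ND6* did not. The same fit called 871 of all genes tested. With the mouse as a block and both muscles numbered 5 left out, 5 of the 7 passed, against 2305 of all genes. *ND6* was then among those that passed (-0.34, adjusted p = 0.0063, edgeR), while *ND3* and *ND4L* did not.

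The levels were more scattered among *FRAIL1* muscles. The coefficient of variation was 8.91% in Control and 20.8% in *FRAIL1* muscles for *ND1*, 9.99 and 25.1% for *ND2*, 9.08 and 22.5% for *ND4*, 10.2 and 24.5% for *ND5*, and 13.5 and 23.1% for *ND6*, a difference in spread that was not tested. For *ND3* it was 34.9% in Control and 25.7% in *FRAIL1* muscles. Summed over the 7 genes, the level was 36461 to 48524 CPM in Control and 19978 to 38869.6 CPM in *FRAIL1* muscles, with *FRAIL1* muscle 5 lowest and *FRAIL1* muscle 1 next at 27188 CPM.

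Among themselves the members varied together. After the group means were removed, log2 CPM of *ND1*, *ND2*, *ND4* and *ND5* correlated at r = 0.971 to 0.995 over the 12 muscles, and *ND6* correlated with these 4 at 0.915 to 0.963. *ND4L* did so at 0.829 to 0.875, and *ND3* at 0.39 to 0.499. These are descriptions, since the genes share libraries and scaling and all but *ND6* share a precursor. Among 7864 genes outside the mitochondrial genome with a mean of at least 10 CPM, those whose pattern over the 12 muscles was most like the mean of the members on the plus strand were *Ccpg1* (r = 0.959), *Txlnb* (r = 0.951), a muscle protein of the taxilin family, and *Pdzrn3* (r = 0.95). Among those most like *ND6* were *Sh3glb1* (r = 0.973) and *Tor1aip1* (r = 0.962). None of these 5 genes passed the threshold between the groups (adjusted p = 0.0654 to 0.648, edgeR), and their likeness was chosen as the highest among many.

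**Figure D3:**
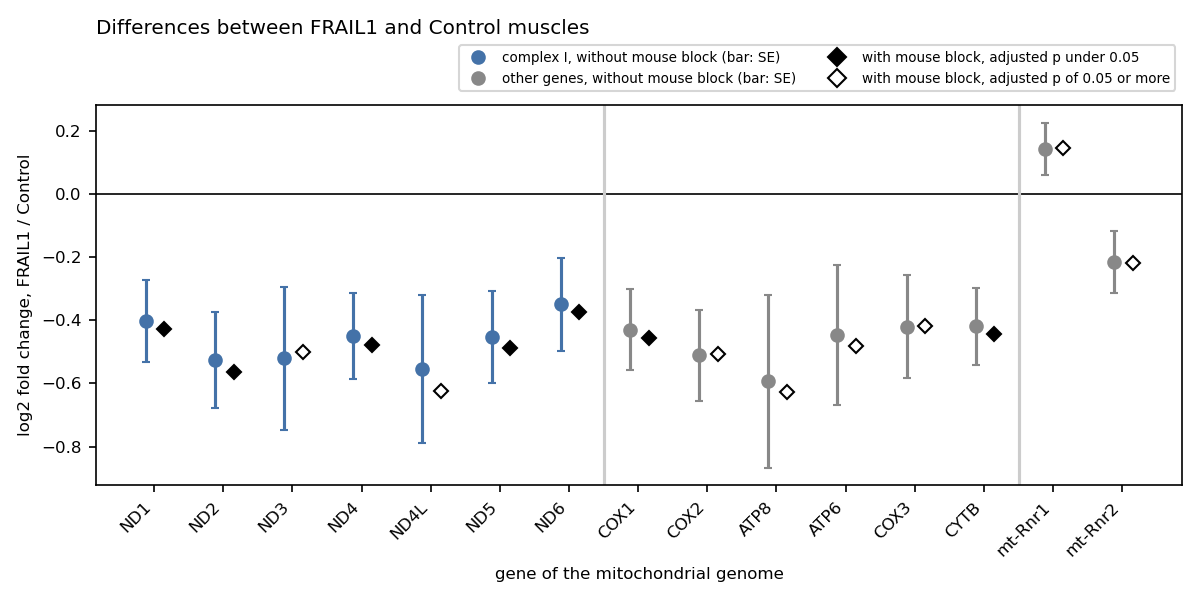
Log2 fold change of *FRAIL1* over Control muscles for the 15 mRNAs and rRNAs of the mitochondrial genome, by edgeR over 6 muscles a group. Circles with SE bars are the fit without the mouse (complex I blue, others gray), and diamonds the fit with the mouse as a block, filled where the adjusted p was under 0.05. All 13 mRNAs lie between -0.63 and -0.35, *mt-Rnr2* at -0.22 and *mt-Rnr1* at 0.14.

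*ND6* lies on the strand opposite to *ND5*, and their counts in the same muscle can be compared without library scaling. *ND6* counts were 20.2 to 23.8% of *ND5* counts in Control muscles and 21.5 to 28.6% in *FRAIL1* muscles. The log2 ratio was -2.18 ± 0.0908 (SD, n = 6) in Control and -2.07 ± 0.148 (SD, n = 6) in *FRAIL1* muscles, a difference of 0.11 that did not pass a 2-sided exact permutation test over all splits into 6 and 6 (p = 0.134, with 0.00216 the smallest possible). In 4 of 6 mice the *FRAIL1* muscle had the higher ratio, with p = 0.219 in an exact sign-flip test over mice, which can give 0.03125 at the least. The 2 highest ratios were those of *FRAIL1* muscle 6 (28.6%) and *FRAIL1* muscle 5 (25.1%), and the other 4 *FRAIL1* muscles lay within the Control range. Against the sum of *ND1*, *ND2*, *ND4* and *ND5* the difference was 0.11 (exact permutation p = 0.0823). A difference in this ratio was not detectable with these muscles. Because the strand setting of the count is not known, the ratio cannot decide whether the strands differ.

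The complex I mRNAs together took a like share of the mitochondrial mRNA counts in both groups, 41.2 ± 0.977% (SD, n = 6) in Control and 40.7 ± 0.924% (SD, n = 6) in *FRAIL1* muscles. Of all counts they took 4.17 ± 0.405% (SD, n = 6) and 3.35 ± 0.607% (SD, n = 6). Within the pool, *ND1* took 13.2 ± 0.309% in Control and 13.5 ± 0.378% in *FRAIL1* muscles, *ND5* 9.50 ± 0.333 and 9.34 ± 0.460%, *ND4* 6.67 ± 0.179 and 6.59 ± 0.145%, and *ND6* 2.10 ± 0.145 and 2.23 ± 0.184% (SD, n = 6 each). The share of *ND2* was 9.67 ± 0.300% in Control and 9.02 ± 0.482% in *FRAIL1* muscles (SD, n = 6 each), the only one of the 5 whose difference in means exceeded the SD of both groups. No test was run on these shares. All shares leave out the reads of copied stretches that could not be counted.

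**Figure D4:**
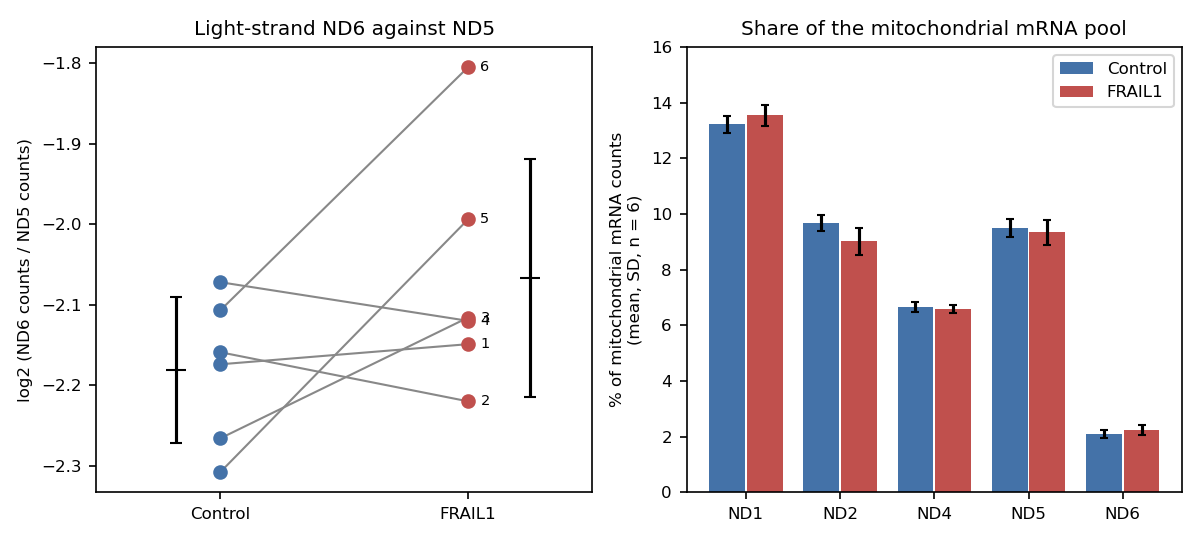
Left, log2 ratio of *ND6* counts to *ND5* counts in each muscle (points, lines joining muscles of 1 number, side bars mean and SD, n = 6), with *FRAIL1* muscles 6 and 5 highest at -1.81 and -1.99. Right, share of mitochondrial mRNA counts taken by each well counted complex I mRNA (bars are means, error bars SD, n = 6), which ranges from about 2.1% for *ND6* to 13.5% for *ND1*.

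The other 6 mRNAs of the mitochondrial genome encode subunits of complexes III, IV and the ATP synthase. Their median log2 fold change was -0.44, against -0.45 for the complex I mRNAs, and only *COX1* and *CYTB* among them were well counted. By edgeR 0 of the 6 passed without the block and 2 with it, *COX1* (-0.43, adjusted p = 0.0553, with the block 0.0153) and *CYTB* (-0.42, adjusted p = 0.0532, with the block 0.0186). *COX2* (-0.51, adjusted p = 0.0501), *COX3* (-0.42, adjusted p = 0.116), *ATP6* (-0.45, adjusted p = 0.209) and *ATP8* (-0.59, adjusted p = 0.174, edgeR) were counted on 15 to 908 reads per muscle. Like those of *ND3* and *ND4L*, their values are not read as levels of their mRNAs. The rRNAs of the mitochondrial genome, which are transcribed from the same strand ahead of *ND1*, had log2 fold changes of 0.14 (*mt-Rnr1*, adjusted p = 0.270) and -0.22 (*mt-Rnr2*, adjusted p = 0.169, edgeR). *mt-Rnr1* was the only mitochondrial gene with a higher mean in *FRAIL1* muscles, 1779.8 against 1611 CPM, and it was lower in 2 of 6 mice. Whether the rRNAs differ from the ND mRNAs in their response was not tested, and poly(A)+ selection captures rRNA only in part.

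The nuclear-encoded side of complex I differed less. For the 7 nuclear core subunits, 0 of 7 passed with or without the block, and the median log2 fold change was -0.09. *Ndufs1*, *Ndufv1* and *Ndufv2*, which form the module that binds and oxidises NADH, measured -0.09, -0.09 and -0.11, and *Ndufs3*, *Ndufs7* and *Ndufs8*, of the module that leads on to ubiquinone, measured -0.01, -0.19 and -0.08 (adjusted p = 0.171 to 0.915, edgeR). All 7 were below 0 here, but under scaling by total counts only 2 of 7 were. Of 30 accessory subunits 29 were tested, and 0 passed with or without the block, with a median of -0.10 (0.04 under total counts alone). *Ndufa3* (-0.29, adjusted p = 0.101) and *Ndufc1* (-0.17, adjusted p = 0.119, edgeR) had the smallest adjusted p among them. Of 18 assembly factors 17 were tested and 0 passed (median -0.11, or 0.04 under total counts alone), and with the block 2 were lower. *Ndufaf5*, which modifies the core subunit *Ndufs7*, measured -0.22 (adjusted p = 0.0806, with the block 0.0310, edgeR), and *Foxred1* 0.17 (adjusted p = 0.121, edgeR). The values of the 7 ND mRNAs, -0.55 to -0.35, lay below those of every one of the 53 nuclear complex I genes tested, of which the lowest was *Ndufa3*, and the difference between the lists was not tested.

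Genes that make and handle mitochondrial mRNA showed few calls. Of 26, 1 passed and was higher, *Mterf4*, which acts with a methyltransferase on mitochondrial rRNA (12.2 ± 0.759 CPM in Control, 14.7 ± 1.30 CPM in *FRAIL1*, SD, n = 6, log2 fold change 0.26, adjusted p = 0.0445, edgeR). Its adjusted p was 0.0435 with the block (edgeR). Without the block it lost its call in 10 of the 12 fits that left out 1 muscle. With the block 2 passed and were lower, *Tfb2m*, a transcription initiation factor of the mitochondrial RNA polymerase (-0.22, adjusted p = 0.0746, with the block 0.0344), and *Fastkd2*, an RNA-binding protein that acts on *ND6* and the large rRNA (-0.23, adjusted p = 0.139, with the block 0.0394, edgeR). The polymerase *Polrmt* measured -0.06, *Tfam*, which packages the mitochondrial DNA, -0.09, and *Lrpprc* and *Slirp*, which stabilise mitochondrial mRNAs, -0.09 and -0.18 (adjusted p = 0.202 to 0.544, edgeR), and these last 4 were named after their values were seen. Of 13 genes used as measures of mitochondrial content, 0 passed with or without the block (median -0.10, or 0.05 under total counts alone), and the smallest adjusted p were those of *Tomm22* (0.16, adjusted p = 0.0911), a receptor of the outer membrane, and *Vdac1* (-0.23, adjusted p = 0.129, edgeR), its main pore.

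**Figure D5:**
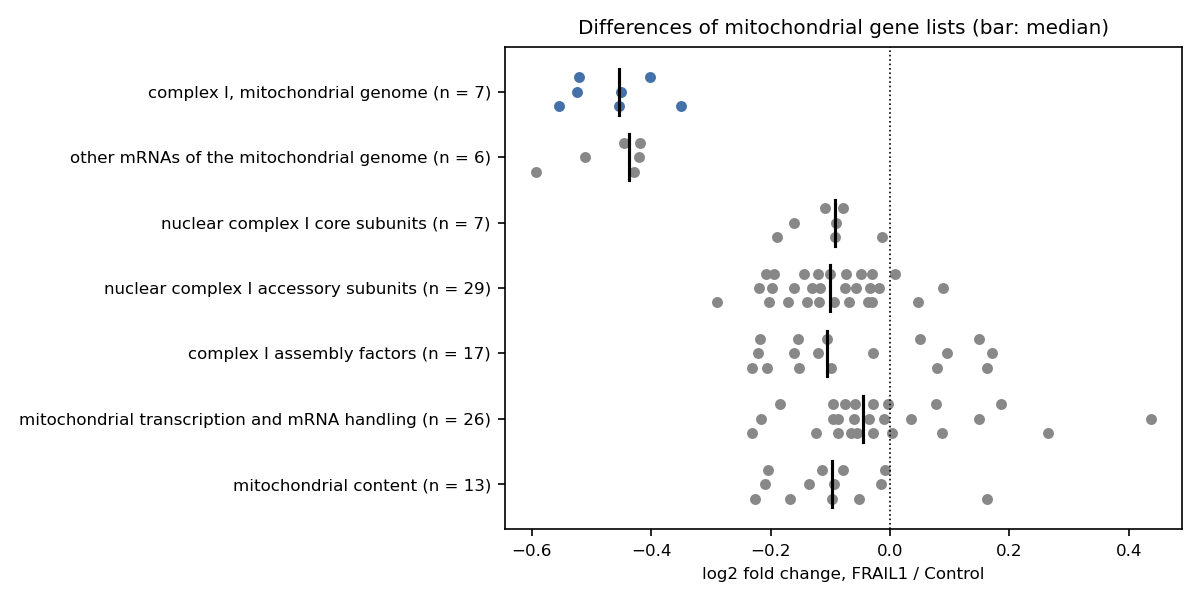
Log2 fold change of *FRAIL1* over Control muscles (edgeR, 6 muscles a group) for each tested gene of 7 lists, 1 point a gene, with the median as a bar. The 7 complex I mRNAs of the mitochondrial genome (blue) lie between -0.55 and -0.35, and the medians of the nuclear lists lie between -0.11 and -0.05, or 0.04 and 0.10 under scaling by total counts alone.

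Levels of some cell type marker genes also differed between the groups. Markers of muscle fibers were abundant in every library, and their summed level was 152792 to 181379 CPM in Control and 121047 to 161747 CPM in *FRAIL1* muscles. Of 10 such genes 1 passed and was lower, the creatine kinase *Ckm* (-0.38, adjusted p = 0.0482, edgeR), which lost its call in 9 of the 12 fits that left out 1 muscle. With the block 2 of 10 were lower, *Ckm* (adjusted p = 0.0384) and the fast myosin *Myh4* (-0.45, adjusted p = 0.0328, edgeR), and DESeq2 and voom each called 6 of 10 lower. Without the block 8 of the 10 were below 0, while another fast myosin, *Myh1* (0.14, adjusted p = 0.269), and *Mylpf* (0.0048, adjusted p = 0.979, edgeR) were above 0. Of 8 markers of slow and oxidative fibers 3 were higher with and without the block, the slow troponins *Tnnt1*, *Tnni1* and *Tnnc1*. The other 5 did not pass and went both ways, with *Myl3* at -0.49, *Mb* at -0.26, *Myh2* at -0.21, *Myh7* at 0.39 and *Myl2* at 0.47 (adjusted p = 0.370 to 0.862, edgeR). The median of the 8 was 0.43 and turned to -0.04 with the block, and summed levels were 2827 to 6389 CPM in Control and 2109 to 5293 CPM in *FRAIL1* muscles. All 5 markers of regenerating fibers were higher with and without the block, among them *Mymk* (1.85, adjusted p = 0.00265) and *Mymx* (1.76, adjusted p = 0.00324, edgeR), which drive the fusion of myoblasts, and *Myh3*, the embryonic myosin (2.16, adjusted p = 0.0124, edgeR). Their sum was 139.6 to 187 CPM in Control and 293 to 1514 CPM in *FRAIL1* muscles, and *FRAIL1* muscle 5, which had the lowest summed ND level, had the highest sum, with the next muscle at 624 CPM. Of 7 fibroblast markers 2 were higher without the block, *Postn* (1.60, adjusted p = 0.0469) and *Col1a2* (0.82, adjusted p = 0.0472, edgeR). With the block 0 of 7 passed (adjusted p = 0.109 for *Postn* and 0.0642 for *Col1a2*, edgeR). The calls without the block were lost in 8 and 9 of 12 fits that left out 1 muscle. The fibroblast sums were 1248 to 2384 CPM in Control and 2465 to 6566 CPM in *FRAIL1* muscles, where muscle 5 was again highest and the next had 3209.8 CPM. Of 9 macrophage markers 0 passed without the block and 6 were higher with it, with *C1qa* (0.70, adjusted p = 0.0595) and *Adgre1* (0.69, adjusted p = 0.0606, edgeR) closest, and sums were 237 to 366 CPM in Control and 297 to 755 CPM in *FRAIL1* muscles. Of 6 endothelial markers 1 was lower, *Tek* (-0.41, adjusted p = 0.0186, edgeR), and with the block 2 were, *Tek* (adjusted p = 0.0129) and *Kdr* (-0.25, adjusted p = 0.0264, edgeR), with sums of 396 to 467 CPM in Control and 319 to 416 CPM in *FRAIL1* muscles. *Myh4*, *Myh1*, *Mylpf*, *Kdr*, *Myl3*, *Mb*, *Myh2*, *Myh7* and *Myl2* were named after their values were seen. No marker was at 0 counts in all muscles, and the part of these differences in the levels of the ND mRNAs was not tested.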

How the data were processed

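RNA-seq of 12 TA muscles (6 Control, 6 *FRAIL1*) was analysed. The authors trimmed 150-base paired-end reads with Trimmomatic, mapped them to mm10 with STAR 2.7.8a and deposited raw counts of uniquely mapped reads per gene from featureCounts 2.0.1. The annotation and strand setting are not given in the sources used here. Of 27179 Gene IDs, 25275 matched a RefSeq symbol, and the others held 0.211 to 0.593% of a library's counts. Positions and transcripts came from GENCODE vM21 (GRCm38, the assembly of mm10).

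After edgeR's filterByExpr, 15502 genes remained, which were TMM-scaled and compared by edgeR 4.0.16 (robust quasi-likelihood, R 4.3.3), without the mouse, since the authors' methods name no such term. Adjusted p-values are Benjamini-Hochberg values over all genes tested, with a threshold of 0.05. The members, lists, naming rule and alternatives were chosen with earlier results of these data known. Named were all mitochondrial genes, the nuclear core subunits, up to 3 called genes of each list (or the 2 with the smallest adjusted p where none was called) and the 3 genes most like each pattern of the members, and some genes that this rule names are not reported here. Alternatives were the mouse as a block, other scalings and filters, DESeq2 1.42.0, limma 3.58.1 voom, and each muscle left out (edgeR without the block). Leaving out both muscles numbered 5 was added after seeing the data. Scripts were tested on simulated data.

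Each mouse gave 1 muscle to each group per the series design. That equal numbers mark 1 mouse was assumed, and deviations from group means correlated at 0.254, 0.162, 0.282, 0.263, 0.0548 and 0.185 for numbers 1 to 6. Correlations between muscles of unlike numbers are not given here, so these values cannot decide whether equal numbers mark 1 mouse. The block is therefore given beside results that it changes. Copies were sought as exact matches of 150-base windows in other annotated transcripts. The deposited counts of *ND6* and *ND5* were compared as a log2 ratio with exact tests (scipy 1.17.1). Protein sequences were not used here.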

Additional observations from a re-analysis of the deposited data

Results flagged for a closer look

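In 32 groups of 6 muscles (15 mitochondrial genes and the ratio of *ND6* to *ND5*, in each group), 2 muscles stood apart from the others of their group by Dixon's criterion, which sets the gap to the nearest muscle against the range, and chance alone flags about 1 in 20 such groups. *FRAIL1* muscle 5 had 6.04 CPM of *COX2*, with a gap of 0.705 of the range to the next *FRAIL1* muscle. Control muscle 5 had 3097 CPM of *mt-Rnr2*, with a gap of 0.663 of the range to the next Control muscle. No value of a complex I mRNA stood apart by this criterion.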

How the results depend on the processing

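The direction of all 7 complex I mRNAs was the same in 24 of 24 alternatives, and their calls were not. Log2 fold changes were -0.78 to -0.22 over all 7, and -0.60 to -0.22 over the 5 well counted members. The number of the 7 past the threshold was 0 by edgeR, 5 with the replicate block, 5 with the block and TMM factors computed without the mitochondrial and the 20 most counted genes, 1 with total counts only, 4 by DESeq2, 6 by DESeq2 with the block, 5 by voom, 4 without both muscles numbered 5 and 5 without these with the block. Leaving out 1 muscle, by edgeR without the block, gave 0 to 5 of 7, and 364 to 2110 of all genes. The count over all genes was 974 by edgeR, 2186 with the replicate block, 2225 with the block and these TMM factors, 2627 with total counts only, 2211 by DESeq2, 2875 by DESeq2 with the block, 1756 by voom and 2305 with the block but without both muscles numbered 5. The part of lower genes among the calls was 29.5%, and 47.0, 47.9, 5.60, 42.5, 48.7 and 46.3% in the first 6 of these alternatives. Total counts alone moved the median log2 fold change of all genes from 0.0096 to 0.16 and turned *Ndufs1* (0.0489), *Ndufs3* (0.13), *Ndufs8* (0.0636), *Ndufv1* (0.0536), *Ndufv2* (0.0324) and *Sh3glb1* (0.0658) above 0, and medians of the nuclear lists (core 0.05, accessory 0.04, assembly 0.04, mRNA handling 0.10, content 0.05). That of the ND mRNAs was then -0.32. *Ndufs3* was also above 0 by voom (0.00030), without Control muscle 6 (0.0103) and without both muscles numbered 5 (0.0043, with the block 0.0042). With 1 muscle left out *Ndufs3* ranged from -0.0418 to 0.0163, highest without *FRAIL1* muscle 5. The cause of these changes was not tested. The difference in the *ND6* to *ND5* ratio, 0.11, was 0.06 to 0.14 when 1 muscle was left out, 0.07 without both muscles numbered 5 (exact permutation p = 0.460) and past the threshold in no alternative. Counts of 74 to 266 limit *ND3* and *ND4L*.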
